A study of Mus musculus with 15 samples.

Results

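The genes described here lie on mouse chromosome 6 on either side of *Ezh2*, the gene that carries the loxP-flanked allele in all of the embryos studied, and were followed to see whether transcription near a conditional allele differs between knockout and control cells. They were selected on position, between about 42 and 48 Mb, and on measured values. The RPKM of *Sva* in Vav-Ezh2-KO against WT libraries brought that gene in, and its values in that comparison are therefore a description only. All 10 genes on the list were found among the 17454 genes measured.

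RNA-seq was performed on erythro-myeloid progenitors (EMPs) sorted from yolk sacs (YS) of C57BL/6 embryos at E10.5, with 15 libraries in 4 groups. All 4 groups were Ezh2fl/fl, so the controls carried the floxed allele on both chromosomes too. Tie2-Ezh2-WT (3 libraries, Tie2-Cre+/+) and Vav-Ezh2-WT (2 libraries, Vav-Cre+/+) had no Cre transgene, and are together called WT. Tie2-Ezh2-KO (5 libraries) carried Tie2-CreTg/+, which acts in endothelium before EMPs emerge, and Vav-Ezh2-KO (5 libraries) carried Vav-CreTg/+, which acts in hematopoietic cells. The study's methods describe its mice as C57BL/6 or as crossed back to that strain for more than 5 generations. Each library came from an individual YS, and the litters and experiments of single libraries were not given in the sources used here.

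Genes that lie close together on a chromosome are inherited together. A targeted allele is usually bred with a stretch of flanking DNA from the strain in which it was made, and the engineered site can also alter transcription of its neighbors, so flanking genes are a usual check in conditional knockout mice. Here all 4 groups carried the floxed allele on both chromosomes, so comparing them cannot show an effect of it that they share. EZH2 is the methyltransferase of polycomb repressive complex 2, which places a repressive mark on histone H3 and keeps tissue-specific genes silent.

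Libraries held between 10407398 and 41025074 reads on genes, with a median of 16091836. Levels are given as RPKM, the reads of a gene scaled to its length and to the reads of its library. The 10 EMP markers were above 0 in every group, and *Gata1* was the most abundant of them, at 168 ± 13.0 RPKM in WT (SD, n = 5) and 178 ± 15.3 in Tie2-Ezh2-KO. In Tie2-Ezh2-KO 8 of the 10 were lower than in WT, with a median difference of −0.21 beside 0.01 over all genes, and 0 were called by limma, beside 2.73% of 14154 genes. *Fcgr3*, which encodes a receptor used in the gate, was at 124 ± 22.3 RPKM in WT and 89.4 ± 15.1 in Tie2-Ezh2-KO. In Vav-Ezh2-KO 5 of the 10 were lower, with a median of 0.01 beside −0.02 over all genes. The library Tie2-Ezh2-KO 9 stood apart from the rest. It had the lowest RPKM of all 15 libraries for 2368 of 9886 genes with a mean above 1 RPKM (24.0%), while the library with the next largest share, Vav-Ezh2-KO 28, was lowest for 10.8%. Among *Ezh2* and the 9 flanking genes other than *Sva*, Tie2-Ezh2-KO 9 alone was lowest for 5, and it shared the lowest value of *Zfp786*, 0, with Vav-Ezh2-WT 6. Differences in Tie2-Ezh2-KO that this library moved are given with and without it.

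On GRCm38, *Sva* (chr6:42038394-42042851), *Gstk1* (chr6:42245935-42250441) and *Casp2* (chr6:42264902-42282508) form a group 5.25 Mb or more before *Ezh2* (chr6:47530274-47595270). *Cul1* (chr6:47453732-47526144) ends 4.1 kb from *Ezh2* and is its nearest neighbor on the list. On the other side, *Pdia4* (chr6:47796141-47813512) lies 201 kb away and is followed by a run of zinc finger genes from *Zfp786* (chr6:47815536-47836197) to *Zfp746* (chr6:48062391-48086986), 467 kb from *Ezh2*. *Zfp398* (chr6:47835633-47873542) overlaps *Zfp786* on the opposite strand over 565 bp, where unstranded reads of the pair cannot be told apart, and *Zfp282* (chr6:47877209-47908485) and *Zfp212* (chr6:47920568-47932639) come next. From *Sva* to *Zfp746* the table holds 17 further genes besides *Ezh2*.

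Levels in WT EMPs spanned a wide range. *Cul1* was highest, at 144 ± 3.09 RPKM (SD, n = 5), followed by *Pdia4* at 81.7 ± 8.91, and their libraries did not overlap. *Ezh2* (38.0 ± 4.84) and *Casp2* (33.7 ± 2.97) did not differ beyond the spread of their libraries. *Zfp212* (7.15 ± 1.20), *Zfp746* (5.91 ± 0.915) and *Gstk1* (4.01 ± 1.32) formed a middle group in which each overlapped the next. *Zfp398* (2.45 ± 0.548), *Zfp282* (0.798 ± 0.214) and *Zfp786* (0.253 ± 0.213) were lower in that order without overlap, and *Sva* was at 0 in every WT library. *Cul1* ranked 862nd of 17454 genes by mean RPKM in WT, and *Zfp786* ranked 11573rd.

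*Ezh2* itself was measured in every library. It was at 36.9, 39.5 and 30.1 RPKM in Tie2-Ezh2-WT, 41.95 and 41.5 in Vav-Ezh2-WT, 27.8, 26.2, 24.8, 29.5 and 26.5 in Tie2-Ezh2-KO, and 33.7, 42.4, 37.8, 38.1 and 34.0 in Vav-Ezh2-KO. The highest Tie2-Ezh2-KO library was under the lowest WT library, whereas Vav-Ezh2-KO overlapped with WT. The conditional allele removes only the exons of the catalytic SET domain, and RPKM is summed over the whole gene, so these values do not measure the deletion and do not check the knockout labels. *Ezh2* was lower in Tie2-Ezh2-KO than in WT by limma, with a difference of −0.48 in mean log2(RPKM + 0.2) (SE 0.12, adjusted p = 0.0418, lower in 5 of 5 libraries), and an exact permutation test gave p = 0.00794, the smallest that 10 libraries allow. The limma call was lost in 11 of 20 alternative settings, with adjusted p from 0.0134 to 0.344, while the difference stayed between −0.56 and −0.39. Against Tie2-Ezh2-WT alone, the controls of the same line, it was −0.39 (SE 0.14, limma adjusted p = 0.344). It was lost without Tie2-Ezh2-WT 4 (limma adjusted p = 0.0760) or 10 (0.114), Vav-Ezh2-WT 4 (0.126) or 6 (0.111), and Tie2-Ezh2-KO 7 (0.0802), 11 (0.0976) or 17 (0.0939). Whether the 2 knockouts acted differently on *Ezh2* was tested as an interaction, each against WT of its own line, and gave −0.22 (SE 0.18, limma adjusted p = 0.971). On simulated data this interaction found 88 of 200 genes changed 4-fold (44%), so its p does not show that the knockouts act alike. Every Tie2-Ezh2-KO library was below every Vav-Ezh2-KO library, a comparison that mixes knockout with breeding line and was not tested.

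*Cul1* encodes the scaffold of SCF ubiquitin ligases and lies closest to the floxed site. It was at 143, 142 and 141 RPKM in Tie2-Ezh2-WT, 149 and 144 in Vav-Ezh2-WT, 130.2, 133, 129, 144 and 130.3 in Tie2-Ezh2-KO, and 131, 145, 154, 131 and 126 in Vav-Ezh2-KO. In Tie2-Ezh2-KO, 4 of 5 libraries lay below all WT libraries and Tie2-Ezh2-KO 13 lay among them. The difference was −0.11 (SE 0.08, limma adjusted p = 0.786), with a 95% interval from −0.28 to 0.07, and the exact permutation test, made for each of 9 genes and *Ezh2* and not adjusted, gave p = 0.0397. In Vav-Ezh2-KO, 3 libraries lay below WT and 1 above, with a difference of −0.07 (SE 0.08). With 1 library left out this difference ran from −0.11 to −0.04.

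The other 12 genes of a list of SCF ligase genes give the setting of *Cul1*. With *Cul1* among them, 0 of 13 passed the limma threshold in Tie2-Ezh2-KO, beside 2.73% of all genes, a share at which 0 of so few is not a result, and this holds for the lists below too. Their median difference was 0.06 beside 0.01 over all genes tested. The most abundant were *Cks1b*, which helps the ligase bind its substrates, at 648 ± 52.7 RPKM in WT (SD, n = 5) and 687 ± 150 in Tie2-Ezh2-KO (SD, n = 5), *Nedd8*, the modifier that activates cullins, and *Skp1a*, the adaptor of F-box proteins. *Nedd8* was at 429 ± 73.2 RPKM in WT and 435 ± 92.8 in Tie2-Ezh2-KO, and *Skp1a* at 379 ± 14.1 and 401 ± 80.5. In Vav-Ezh2-KO the median of the list was 0.03 beside −0.02 over all genes.

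*Pdia4*, a protein disulfide isomerase of the endoplasmic reticulum, was at 80.9, 68.0 and 82.7 RPKM in Tie2-Ezh2-WT, 84.0 and 92.7 in Vav-Ezh2-WT, 77.9, 60.7, 77.6, 76.2 and 82.5 in Tie2-Ezh2-KO, and 77.1, 71.3, 80.7, 85.6 and 61.9 in Vav-Ezh2-KO. Both knockouts overlapped with WT, and the lowest value was that of Tie2-Ezh2-KO 9. The difference in Tie2-Ezh2-KO was −0.12 (SE 0.11, 95% interval −0.37 to 0.12, limma adjusted p = 0.858) and −0.05 without Tie2-Ezh2-KO 9. In Vav-Ezh2-KO it was −0.12 (SE 0.10), and ran from −0.18 to −0.05 with 1 library left out. Of 18 genes for folding in the endoplasmic reticulum, *Pdia4* included, 0 passed the limma threshold in Tie2-Ezh2-KO (2.73% of all genes), where 7 were higher and 11 lower with a median of −0.02 beside 0.01 over all genes. In Vav-Ezh2-KO 17 of the 18 were lower, with a median of −0.15 beside −0.02 over all genes. The chaperone *Hspa5* was the most abundant, at 757 ± 49.3 RPKM in WT (SD, n = 5), 735 ± 63.1 in Tie2-Ezh2-KO and 584 ± 79.1 in Vav-Ezh2-KO (limma adjusted p = 0.527), followed by the isomerase *Pdia3* and the lectin chaperone *Calr*, at 466 ± 35.3 and 448 ± 63.4 in WT.

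The zinc finger genes beyond *Pdia4* encode DNA-binding proteins with C2H2 fingers, a class of transcriptional regulators that often sits in clusters. *Zfp212* was at 6.50, 8.92 and 6.70 RPKM in Tie2-Ezh2-WT, 5.88 and 7.74 in Vav-Ezh2-WT, 5.26, 3.34, 4.29, 9.12 and 6.34 in Tie2-Ezh2-KO, and 6.12, 6.02, 5.24, 6.81 and 7.08 in Vav-Ezh2-KO. *Zfp746*, whose product is a repressor degraded through parkin, was at 6.08, 5.08 and 6.31 RPKM in Tie2-Ezh2-WT, 4.93 and 7.14 in Vav-Ezh2-WT, 5.00, 3.01, 7.34, 11.3 and 7.32 in Tie2-Ezh2-KO, and 4.89, 5.98, 4.84, 7.43 and 5.24 in Vav-Ezh2-KO. For both genes the Tie2-Ezh2-KO libraries spread more widely than any other group, with Tie2-Ezh2-KO 9 the lowest and Tie2-Ezh2-KO 13 the highest of all 15 libraries. The coefficient of variation of *Zfp746* was 45.7% in Tie2-Ezh2-KO, 19.0% in Vav-Ezh2-KO and 15.5% in WT. Differences in Tie2-Ezh2-KO were −0.39 for *Zfp212* (SE 0.24, limma adjusted p = 0.689) and 0.09 for *Zfp746* (SE 0.28, limma adjusted p = 0.972). Without Tie2-Ezh2-KO 9 they were −0.23 and 0.34, and without Tie2-Ezh2-KO 13 they were −0.58 and −0.13, so that the sign for *Zfp746* turned.

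*Zfp398*, *Zfp282* and *Zfp786* were lower still and rested on few reads. *Zfp398* ranged from 1.58 to 3.09 RPKM in WT, 1.20 to 2.23 in Tie2-Ezh2-KO and 0.921 to 2.95 in Vav-Ezh2-KO, with 54 to 365 reads per library. *Zfp282* ranged from 0.569 to 1.12 in WT, 0.564 to 1.37 in Tie2-Ezh2-KO and 0.670 to 1.50 in Vav-Ezh2-KO. *Zfp786* had at most 49 reads in any library and was at 0 in Vav-Ezh2-WT 6 and Tie2-Ezh2-KO 9. In Tie2-Ezh2-KO, 4 of 5 libraries had more *Zfp282* than any WT library and Tie2-Ezh2-KO 9 had less than all of them. None of the 3 genes passed the limma threshold in Tie2-Ezh2-KO, with differences of −0.33 (SE 0.26) for *Zfp398*, 0.39 (SE 0.29) for *Zfp282* and 0.13 (SE 0.47) for *Zfp786*. Without Tie2-Ezh2-KO 9 the same differences were −0.19, 0.58 and 0.42. The difference of *Zfp282* became 0.20 after quantile normalization. That of *Zfp786* had no settled sign, since it was −0.12 after quantile normalization and −0.07 against WT of the same line. In the wider cluster of 13 genes, zinc finger genes and *Krba1*, 6 were higher and 7 lower in Tie2-Ezh2-KO, 0 of them past the limma threshold (2.73% of all genes), with a median of −0.17 beside 0.01 over all genes. *Repin1*, the most abundant of them, was at 8.14 ± 2.91 RPKM in WT (SD, n = 5) and 7.06 ± 2.54 in Tie2-Ezh2-KO.

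*Casp2*, which encodes an initiator caspase activated on a platform of PIDD1 and CRADD, lies with *Gstk1* on the far side. It was at 34.8, 29.4 and 32.2 RPKM in Tie2-Ezh2-WT, 37.1 and 35.1 in Vav-Ezh2-WT, 27.9, 14.6, 23.8, 34.0 and 32.5 in Tie2-Ezh2-KO, and 33.7, 34.3, 22.6, 35.5 and 30.0 in Vav-Ezh2-KO. In Tie2-Ezh2-KO 3 libraries lay below every WT library, and Tie2-Ezh2-KO 9 was the lowest of all. The difference was −0.40 (SE 0.19, 95% interval −0.81 to 0.01, limma adjusted p = 0.488) and −0.20 without Tie2-Ezh2-KO 9. In Vav-Ezh2-KO it was −0.12 (SE 0.12), with only Vav-Ezh2-KO 10 below the WT libraries, and −0.01 without that library. Of related genes, the initiator *Casp8* was at 47.8 ± 3.02 RPKM in WT (SD, n = 5) and 44.1 ± 1.80 in Tie2-Ezh2-KO, and *Casp6* at 39.7 ± 4.22 and 40.9 ± 5.55.

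*Gstk1* encodes a glutathione transferase of mitochondria and peroxisomes, and had 31 to 242 reads per library. It was at 3.20, 3.20 and 6.34 RPKM in Tie2-Ezh2-WT, 3.61 and 3.72 in Vav-Ezh2-WT, 5.13, 9.29, 4.79, 4.61 and 7.22 in Tie2-Ezh2-KO, and 4.76, 8.87, 9.82, 5.23 and 7.04 in Vav-Ezh2-KO. Every knockout library exceeded 4 of the 5 WT libraries, and the remaining one, Tie2-Ezh2-WT 12, was higher than 3 libraries of Tie2-Ezh2-KO and 2 of Vav-Ezh2-KO. The difference in Tie2-Ezh2-KO was 0.60 (SE 0.25, 95% interval 0.06 to 1.14) and did not pass the limma threshold (adjusted p = 0.358), and the exact permutation test gave p = 0.0556. Without Tie2-Ezh2-WT 12 it was 0.77 and without Tie2-Ezh2-KO 9 it was 0.44, with limma adjusted p between 0.155 and 0.601 over the libraries left out. In Vav-Ezh2-KO the difference was 0.79 (SE 0.24), and the same 5 WT libraries serve both comparisons.

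Of 14 other glutathione transferase genes tested in Tie2-Ezh2-KO, 10 were higher and 4 lower, with a median of 0.11 beside 0.01 over all genes, and limma called 2, beside 2.73% of all genes. *Mgst3*, a membrane-bound transferase, rose by limma from 69.5 ± 8.64 RPKM in WT (SD, n = 5) to 98.8 ± 15.7 in Tie2-Ezh2-KO (difference 0.50, SE 0.13, adjusted p = 0.0477), a call lost in 14 of 20 alternative settings. *Gstt1*, a theta class transferase, rose from 0.438 ± 0.276 to 1.88 ± 0.783 (difference 1.72, SE 0.39, limma adjusted p = 0.0273), a call lost in 10 of the 19 settings that kept the gene. The most abundant, *Gstp1*, was at 179 ± 19.2 RPKM in WT and 183 ± 33.4 in Tie2-Ezh2-KO, and *Gsto1* at 155 ± 17.8 and 160 ± 25.7. In Vav-Ezh2-KO 12 of the 14 were higher, with a median of 0.10 beside −0.02 over all genes.

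**Figure D1:**
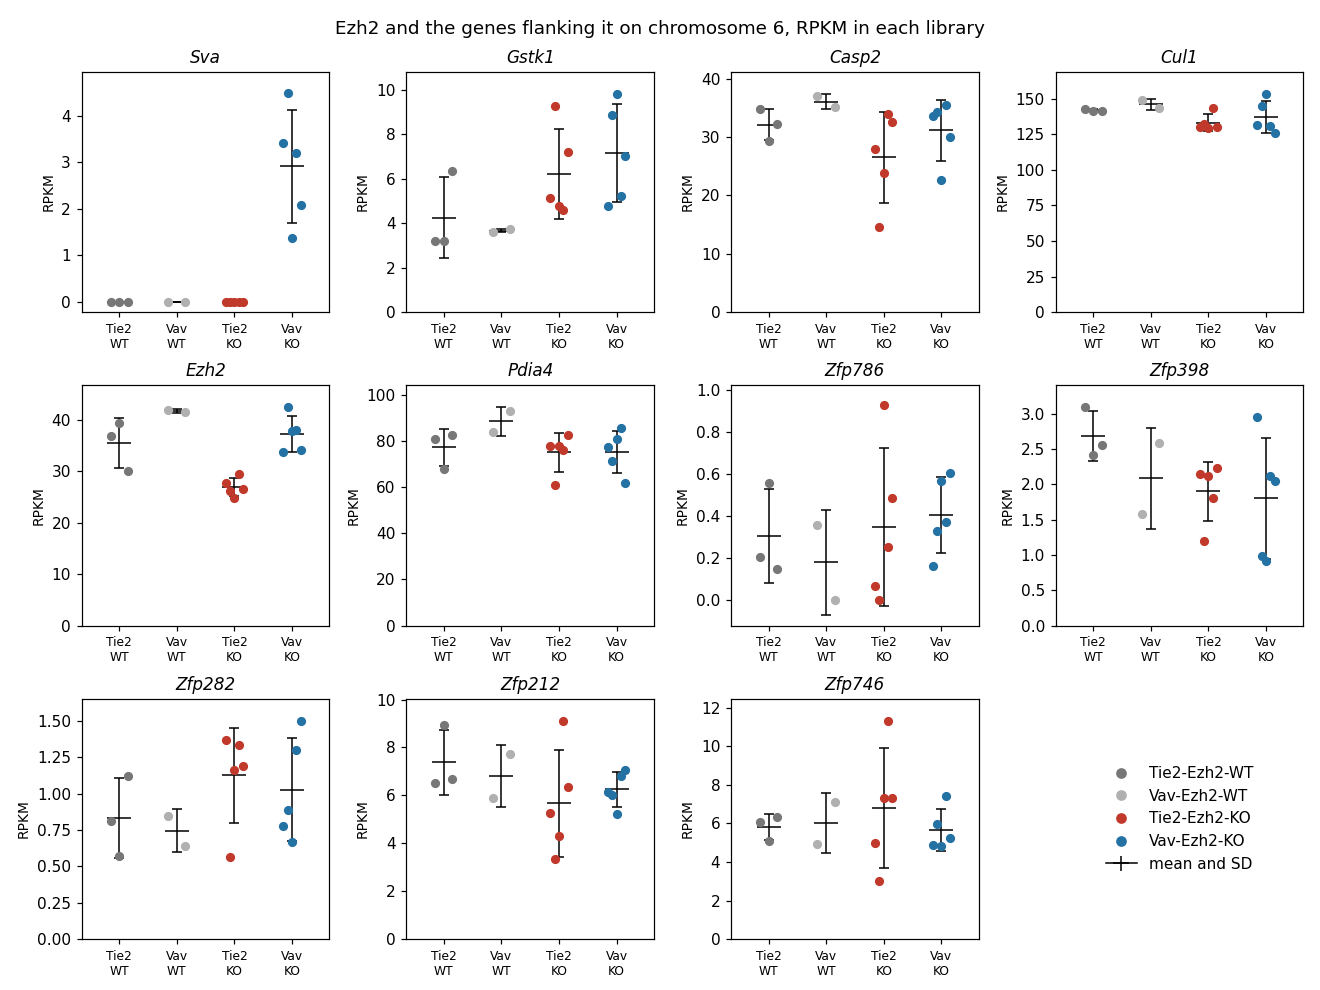
RPKM of *Ezh2* and of the 10 genes flanking it in each of the 15 libraries, in chromosomal order, on linear axes. Points are libraries and horizontal marks with bars are the group mean and SD; *Sva* is above 0 in the 5 Vav-Ezh2-KO libraries only, and the highest *Ezh2* value in Tie2-Ezh2-KO is under the lowest in WT.

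*Sva* encodes seminal vesicle antigen, a secreted protein of the male accessory glands, and sits farthest from *Ezh2*. No read fell on it in WT or in Tie2-Ezh2-KO, whereas Vav-Ezh2-KO 1, 9, 10, 26 and 28 had levels of 3.43, 4.50, 1.37, 3.20 and 2.09 RPKM. All 5 libraries of that group were thus above 0 and all others at 0, which is the pattern that brought the gene onto the list. With the annotated length of 651 bases these values correspond to 63, 54, 15, 24 and 39 reads, but the values fix the reads only up to a common factor of 3, and a length of 217 bases would give 5 to 21 reads. The mean in Vav-Ezh2-KO was 2.92 ± 1.22 RPKM (SD, n = 5). With 3 reads per library put in place of 0, it was 10.3-fold the value of Tie2-Ezh2-WT, 10.8-fold that of Vav-Ezh2-WT and 10.7-fold that of Tie2-Ezh2-KO. At the shorter length these ratios are 3.45-fold, 3.60-fold and 3.58-fold. All of them cover counting error only, and copies made by PCR count as separate reads. Since the same values chose the gene, the ratios are a description and not a test.

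None of the 577 stretches of 75 bases in the annotated *Sva* transcripts, the length of a read, occurs in a transcript of another gene. The same held for *Gstk1*, *Casp2*, *Pdia4*, *Zfp786*, *Zfp282*, *Zfp212* and *Zfp746*, while *Cul1* shared 1.13% of its stretches, *Ezh2* 0.396% and *Zfp398* 0.255%. Only exact matches among annotated transcripts were searched, so reads aligned with mismatches and sequence outside these transcripts are not covered. No other gene had the pattern of *Sva*, with reads in each of the 5 Vav-Ezh2-KO libraries and in none of the remaining 10. Since this pattern chose the gene, that is a description only. The genes *Pip*, *Sval1*, *Sval2* and *Sval3*, which neighbor *Sva* and belong to its family, were not analysed here.

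Across the list, the flanking genes gave no call in Tie2-Ezh2-KO. *Sva* was at 0 throughout and did not enter the test, and of the other 9, all of which passed the filter on low values, 0 were called by limma, whereas 2.73% of the 14154 genes tested were called, 343 of 386 of them higher. At an unadjusted p under 0.05 limma gave 1 of 9, *Gstk1*, higher in Tie2-Ezh2-KO, where the share of all genes that were higher at this p was 8.22%. With limma-voom on recovered reads there were 0 of 9 at either level, beside 336 genes called after adjustment. For 0 of 9 were Tie2-Ezh2-KO and WT values clear of each other, against 4.01% of all genes. The median difference of the 9 was −0.11, with 4 higher and 5 lower, beside 0.01 over all genes, and −0.05 without Tie2-Ezh2-KO 9. *Ezh2* was the only called gene from *Sva* to *Zfp746*, since 0 of the 12 further genes tested there were called. Beside so small a share, 0 of 9 is not a result about these genes.

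In Vav-Ezh2-KO all 10 genes entered the fit, *Sva* only through the Vav-Ezh2-KO libraries themselves, and neither they nor *Ezh2* were tested. Among the 13636 remaining genes limma called 0 (0%). The 9 genes besides *Sva* had differences from −0.49 for *Zfp398* to 0.79 for *Gstk1*, with 3 higher and 6 lower and a median of −0.07 beside −0.02 over all genes. Leaving out 1 library at a time moved this median between −0.16 and −0.01, and the difference of *Zfp398* between −0.68 and −0.31. *Zfp786* was at 0.50 (SE 0.36), *Zfp282* at 0.28 (SE 0.27), *Zfp212* at −0.18 (SE 0.16) and *Zfp746* at −0.06 (SE 0.17). With 1 library left out these 4 ran from 0.24 to 0.72, 0.15 to 0.39, −0.24 to −0.10 and −0.16 to 0.01. Over all alternative settings *Zfp786* ran from 0.17 to 1.45. Standard errors of these 9 were smallest for the abundant *Cul1* and *Pdia4*.

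**Figure D2:**
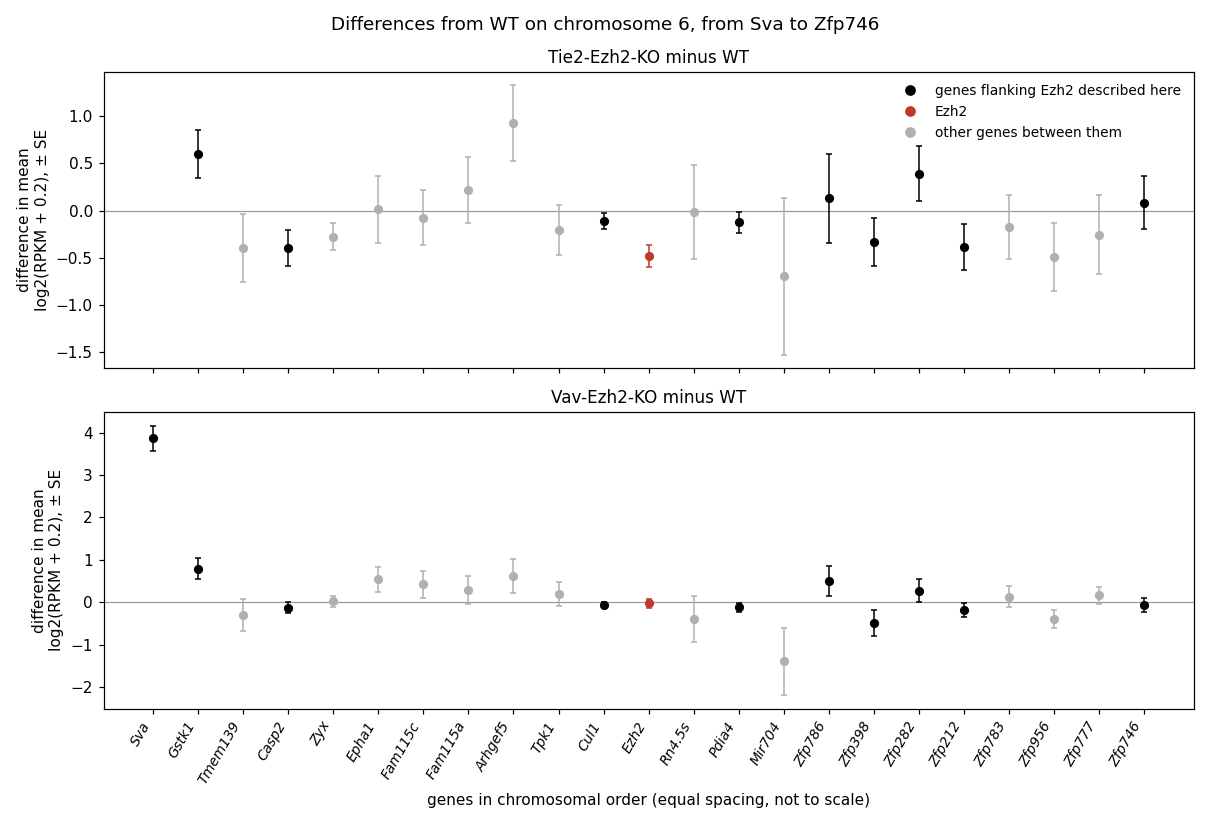
Difference of each knockout from the 5 WT libraries in mean log2(RPKM + 0.2), with its SE, for genes in each fit from *Sva* to *Zfp746* on chromosome 6, in chromosomal order with equal spacing. Black points are the genes flanking *Ezh2*, the red point is *Ezh2* and gray points are other genes; *Sva* is absent above because it was at 0, and stands at 3.86 below, a size set by the value added to RPKM (1.91 to 6.08 over the alternative settings).

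The breeding lines were compared in the absence of Cre. Between Vav-Ezh2-WT and Tie2-Ezh2-WT limma called 0 of the 9 genes other than *Sva*, beside 0.0139% of 14393 genes. At an unadjusted p under 0.05 limma gave 0 of the 9, beside 871 of the 14393 genes, and limma-voom called 0 of the 9. For 3 of the 9 the 2 groups were clear of each other, beside 24.1% of all genes, and *Cul1*, *Casp2* and *Pdia4* were higher in Vav-Ezh2-WT by 0.04 (SE 0.11), 0.17 (SE 0.27) and 0.20 (SE 0.16). *Ezh2* was likewise higher in both Vav-Ezh2-WT libraries, by 0.24 (SE 0.15, limma adjusted p = 0.886). The interaction, which sets the effect of each knockout against its own line, uses the Vav-Ezh2-KO libraries, so its values for the flanking genes are given without a test; limma called 0.167% of the 14384 genes off the list. For the 9 genes other than *Sva* they ran from −0.88 for *Zfp786* (SE 0.77) to 0.19 for *Pdia4* (SE 0.19), and that of *Cul1* was 0.00 (SE 0.14, 95% interval −0.29 to 0.29).

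Markers of other cells differed between libraries. The 3 primitive erythroid markers summed to 309, 585, 855, 192 and 284 RPKM in Tie2-Ezh2-KO 7, 9, 11, 13 and 17, and to between 59.9 and 155 in the other 10 libraries. The most abundant of them, *Hbb-bh1*, rose by limma from 114 ± 32.1 RPKM in WT (SD, n = 5) to 274 ± 142 in Tie2-Ezh2-KO (difference 1.18, SE 0.29, adjusted p = 0.0441), a call lost in 14 of 20 alternative settings. *Hba-x*, an embryonic alpha-like globin gene, rose by limma from 1.36 ± 0.858 to 166 ± 146 (difference 6.33, SE 0.62, adjusted p = 0.0000888), lost in 1 of 20. They move with the lower *Ezh2* of that group, and their part in it was not tested. The study defined EMPs as lineage-negative, and an erythroid surface marker is among its sorting antibodies. The 8 visceral endoderm markers reached 222 RPKM in Tie2-Ezh2-WT 4 and 299 in Tie2-Ezh2-KO 7, and between 11.4 and 33.7 elsewhere, with 25.04 in Tie2-Ezh2-WT 12 and 33.7 in Tie2-Ezh2-KO 9, where *Gstk1* was high. All 7 of them in the fits were higher in Tie2-Ezh2-KO, with a median of 0.37, and lower in Vav-Ezh2-KO, with a median of −1.11, and 0 were called in either; their part in the differences above was not tested. Endothelial markers summed to 164 ± 13.7 RPKM in WT (SD, n = 5), 162 ± 8.34 in Tie2-Ezh2-KO and 144 ± 14.97 in Vav-Ezh2-KO, and *Egfl7* made up most of each sum. Counted by gene, 7 of the 10 were higher in Tie2-Ezh2-KO, with a median of 0.25, and 7 of the 10 lower in Vav-Ezh2-KO, with a median of −0.23, and limma called 0 of them in either. Macrophage markers summed to 8.16 to 27.8 RPKM and mesenchyme markers to 0.256 to 1.89 over all libraries, with *C1qa* at 0 in every library and *Pdgfra* at 0 throughout WT and Tie2-Ezh2-KO. Of 6 macrophage markers in the fits, 5 were lower in Tie2-Ezh2-KO (median −0.30) and 3 in Vav-Ezh2-KO (median 0.02). For both knockouts limma called 0 of these 6. In sorted pools of cells, fewer cells of a type and less RNA per cell cannot be told apart.

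Promoter sequences set *Sva* apart from the other genes on the list and from *Ezh2*. RefSeq windows on GRCm38.p6 from 250 bases before to 50 after a transcription start were matched for all 10 genes and *Ezh2*, 13 windows in all because *Cul1* has 3 starts. *Sva* had 0 CG dinucleotides, as did 5.43% of 32851 promoters of the same length, and a GC content of 38.7%. The other 12 windows held 5 to 46 CG, and 11 of them were above the median of all promoters, which was 7. The windows of *Sva* (chr6:42038144-42038443, plus strand) and of the last start of *Cul1* (chr6:47454507-47454806, plus strand) are shown because they are the lowest and highest in CG, which is in capitals.
Sva: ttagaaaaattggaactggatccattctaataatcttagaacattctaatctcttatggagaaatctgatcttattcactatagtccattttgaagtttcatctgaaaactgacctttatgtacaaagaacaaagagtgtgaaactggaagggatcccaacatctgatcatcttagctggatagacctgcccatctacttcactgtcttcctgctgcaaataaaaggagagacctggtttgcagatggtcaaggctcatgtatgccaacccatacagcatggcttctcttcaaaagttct
Cul1: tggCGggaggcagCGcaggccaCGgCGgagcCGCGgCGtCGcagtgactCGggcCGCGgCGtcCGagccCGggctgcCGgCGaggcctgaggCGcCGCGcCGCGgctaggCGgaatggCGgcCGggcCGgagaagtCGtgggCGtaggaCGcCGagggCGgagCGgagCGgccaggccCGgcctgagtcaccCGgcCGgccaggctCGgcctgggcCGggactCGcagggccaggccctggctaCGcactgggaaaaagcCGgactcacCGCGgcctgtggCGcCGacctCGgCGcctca
The TATA box letters TATAAA, searched on both strands, were found in the window of *Zfp746* alone (1 of 13, beside 13.6% of all promoters). They lie there on the opposite strand at base 50 of the window, whereas the transcription start comes after 250 bases. The GATA letters AGATAA, likewise searched on both strands, were found in the window of *Gstk1* alone (1 of 13, beside 11.2% of all promoters).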

How the data were processed

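The authors aligned 75 bp single-end reads to GRCm38 with TopHat2 2.0.13, keeping 1 alignment per read, counted them per RefSeq gene with featureCounts, and deposited RPKM values for 17454 genes on a linear scale. The cDNA was amplified by 16 cycles of PCR without molecular identifiers, from 500 cells per library by the labels (the study's methods give another number). RPKM is not corrected for composition, so a few abundant genes can move the others. The genes, lists and comparisons were chosen with earlier results of these data known.

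Values were tested as log2(RPKM + 0.2), which understates differences of low genes, keeping genes that exceeded 0.2 RPKM in 1 or more libraries, with limma 3.58.1 in R 4.3.3 (lmFit, eBayes with trend), Benjamini-Hochberg adjustment over all genes tested and a threshold of 0.05. Each knockout was set against the 5 WT libraries. The 2 WT groups and the interaction were fitted over 15 libraries in 4 groups. Single genes were also tested by two-sided exact permutation over 252 divisions. No test was made of *Sva*, nor of the flanking genes in Vav-Ezh2-KO or the interaction, nor of *Ezh2* in Vav-Ezh2-KO. These entered the fits for their values only and were left out of the adjustment, a choice made after seeing the data. The code was tested on simulated data.

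Reads were recovered from the steps between RPKM values. Whole reads resulted for each of the 16877 genes above 0 (100%, tolerance 1e-05). Positions came from RefSeq, in which 17362 genes were placed. Figures and sequence counts were made in Python 3.11.15. Named genes were all 10 flanking genes, *Ezh2*, any other called gene of the window, genes at 0 outside Vav-Ezh2-KO and above 0 in all of its libraries, and, from each list, called genes and up to 3 of highest mean RPKM. Of the marker lists, called genes, the most abundant gene or genes at 0 are named, and *Fcgr3*. One gene of the caspase list is not reported here, so no count or median of that list is given. Alternatives were pseudocounts of 1 and 0.05, no filter or a stricter filter, quantile normalization, scaling to a common median, eBayes without trend, WT of the same line, all 15 libraries in one fit, each library left out and, added after seeing the data, limma-voom on recovered reads. The ATAC-seq, CUT&RUN and culture experiments were not analysed here.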

Additional observations from a re-analysis of the deposited data

Results flagged for a closer look

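In 4 of 31 groups checked, 1 library lay far from the other 4. The groups are genes measured in the same libraries, so this count cannot be set against the 1 in 20 that chance gives for independent groups. *Gstk1* in Tie2-Ezh2-WT 12 was at 6.34 RPKM, far above the other WT libraries. *Cul1* in Tie2-Ezh2-KO 13 was at 144 RPKM, above the other Tie2-Ezh2-KO libraries. *Pdia4* at 60.7 RPKM and *Zfp282* at 0.564 RPKM in Tie2-Ezh2-KO 9 were far below the rest of that group. Tie2-Ezh2-KO 9 was also the lowest library for 24.0% of all genes with a mean above 1 RPKM.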

How the results depend on the processing

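No paired analysis was possible because the litters and experiments of single libraries were not given in the sources used here. Of the 9 flanking genes tested, 0 were called in Tie2-Ezh2-KO or between the WT groups under every alternative run. The stricter filter left out *Zfp786*, and in Vav-Ezh2-KO *Zfp282* too, so it gives no median there. In Tie2-Ezh2-KO the count of 386 called genes became 230 with the stricter filter, 187 against WT of the same line, and 262 to 438 with 1 library left out. The count of 1 called gene of the window, *Ezh2*, became 0 without trend, with scaling to a common median, with WT of the same line and with limma-voom, and was 0 to 1 with 1 library left out. In Vav-Ezh2-KO the count of 0 became 1 with WT of the same line and was 0 to 1 with 1 library left out. Between the WT groups the count of 2 became 1 with a pseudocount of 1 or without trend, 4 without a filter, 0 with scaling to a common median or limma-voom, and 0 to 8 with 1 library left out, where a lone Vav-Ezh2-WT library is taken to vary like the others. For the difference of the knockout effects the count of 24 became 15 without a filter, 11 with the stricter filter, quantile normalization or scaling to a common median, 2 with limma-voom, and 6 to 26 with 1 library left out. The sign of *Zfp786* in Tie2-Ezh2-KO turned with quantile normalization (-0.12) and WT of the same line (-0.072), and it ran from -0.20 to 0.42 with 1 library left out, while *Zfp746* ran from -0.13 to 0.34. The cause of these changes was not tested. No scaling moved the median of all genes by as much as 0.1. Low read numbers limit *Sva*, *Zfp786*, *Zfp282*, *Zfp398* and *Gstk1*.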
